A study of Mus musculus with 12 samples.

Results

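The 9 genes described here belong to the elastic fibre. They are Eln, Fbn1, Fbn2, Fbln5, Efemp2, Mfap4, Mfap5, Ltbp4 and Emilin1, and they were followed in nuclei of mouse lung to see whether the partners of elastin followed Eln across cell classes and treatments. They were chosen by symbol from the 31053 genes of the count matrices, and every value comes from unique molecular identifiers (UMIs, each marking 1 captured RNA molecule) in all 12 libraries. The mice were C57BL/6J, aged 7 weeks at instillation, and received bleomycin (1.2 U/kg) or phosphate-buffered saline (PBS) into the trachea. From day 5 they were given 5 daily oral doses of NVP-BHG712, an inhibitor of the receptor tyrosine kinase EphB4, or of its vehicle, and lungs were taken on day 14. The groups are PBS_vehicle, PBS_NVP, Bleo_vehicle and Bleo_NVP, each with 3 mice and 1 library per mouse. Nuclei were isolated from frozen lung and sorted on DNA staining, a preparation meant to leave out cytoplasmic RNA. Mitochondrial RNA was still counted, most in Bleo_vehicle, as described below. How far the values describe nuclear RNA alone was not tested.

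Elastic fibres let the lung stretch and recoil. Their core is crosslinked elastin, made from the soluble precursor tropoelastin (Eln), and it is laid down on microfibrils of fibrillin (Fbn1 and Fbn2) with the microfibril-associated glycoproteins (Mfap4 and Mfap5). Fibulin-5 (Fbln5) and fibulin-4 (Efemp2) bind tropoelastin and bring it to the crosslinking lysyl oxidases, latent TGF-beta binding protein 4 (Ltbp4) helps place fibulin-tropoelastin assemblies on the microfibril and also binds latent TGF-beta, and Emilin1 sits between elastin and microfibril. Loss of several of these genes is known to leave the lung with weak elastic tissue and enlarged airspaces.

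The libraries held 49163 barcodes, of which 44611 nuclei were kept, and the library totals ran from 3556084 to 61947690 UMIs. Of the clustered nuclei 9955 fell in clusters with the markers of fibroblasts, 342 to 2047 per library, with summed depths of 874122 to 9059056 UMIs. A subcluster of 2503 of them was led by mitochondrial and haemoglobin genes. Subclusters of 224, 148, 114 and 87 were led by endothelial, epithelial or immune genes, and a further 102 by mixed genes. Outside these lay 655 of 846, 317 of 443 and 316 of 419 nuclei in PBS_vehicle. In Bleo_vehicle 266 of 499, 872 of 1691 and 1423 of 2047 did, and in Bleo_NVP 214 of 342, 346 of 462 and 302 of 425. All stayed in the fibroblast class. Of 9 fibroblast markers, 6 were highest in this class, Pdgfra at 974 CPM (UMIs of a gene scaled to a common library total) against 115 CPM in the next class, while Col3a1, Dcn and Lum ranked the third, and Dcn reached only 34.6 CPM. The Bleo_vehicle libraries stood apart from the other 9. Mitochondrial genes took a median of 2.56, 1.32 and 0.668% of the UMIs of a nucleus in their replicates 1, 2 and 3 and at most 0.0496% elsewhere, and in fibroblast expression Bleo_vehicle replicate 1 had a median correlation of 0.83 with the other libraries, where the others had 0.93 to 0.96. The labels give the PBS libraries run numbers 1 to 3, all Bleo_NVP libraries run number 4, and the Bleo_vehicle libraries batches 6, 6 and 7, so that run or batch and treatment cannot be told apart in any comparison with Bleo_vehicle or Bleo_NVP. In all, 324 barcode sequences occurred in more than 1 library, at most 34 for any pair.

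Eln gave 47396 UMIs over all nuclei, Fbn1 29952, Ltbp4 8139, Mfap4 7292, Fbln5 7187, Mfap5 3357, Emilin1 1075, Efemp2 683 and Fbn2 495, and precision falls in that order. Fibroblasts held most of these UMIs for Mfap5 (89.2%), Fbn1 (84.0%), Mfap4 (74.5%), Ltbp4 (71.9%), Eln (69.2%) and Emilin1 (52.1%), and 46.3% for Efemp2. Fbln5 and Fbn2 were different, with 16.9% and 11.3% of their UMIs in fibroblasts. AT1 nuclei, the flat gas-exchange epithelium, held 61.9% of the UMIs of Fbln5, and AT2 nuclei, the surfactant-producing epithelium, held 53.3% of those of Fbn2.

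**Figure D1:**
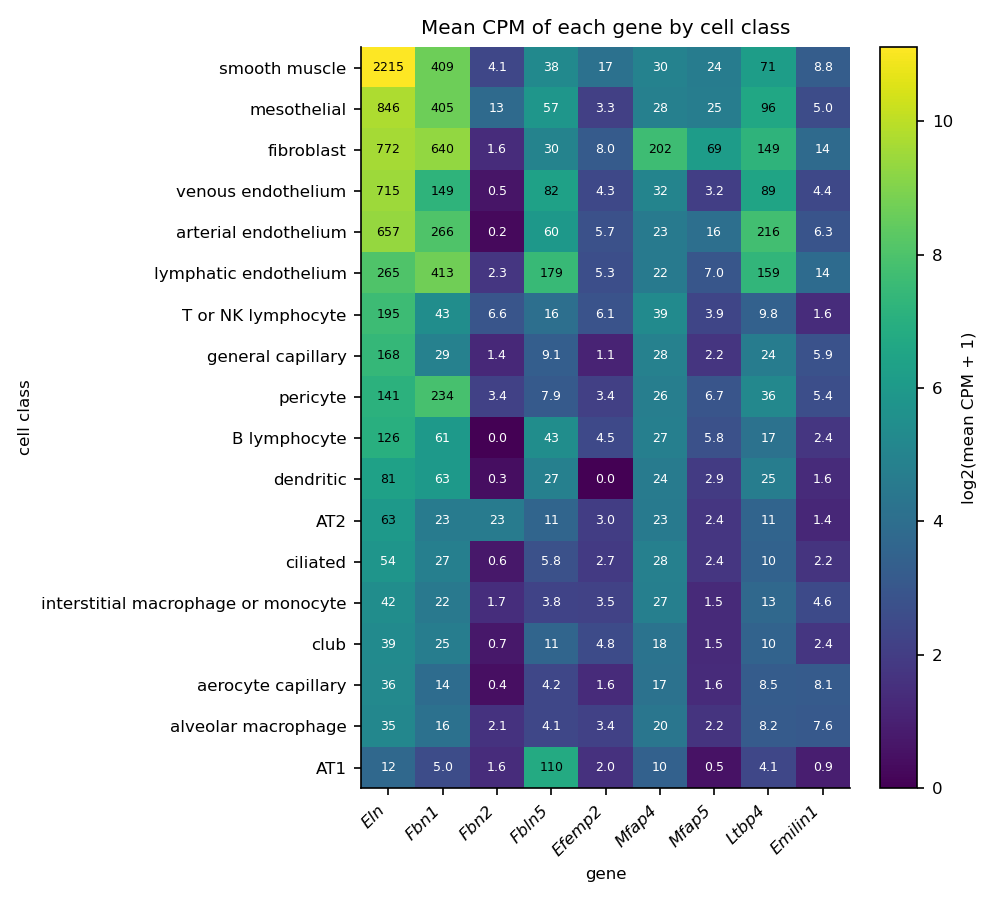
Mean CPM of each of the 9 genes (columns) in 18 cell classes (rows, ordered by Eln), over libraries with at least 20 nuclei of the class. Colour gives log2(mean CPM + 1) and the printed figures are mean CPM. Eln reached 2215 CPM in smooth muscle and 772 in fibroblasts, whereas Fbln5 reached 109.9 CPM in AT1 nuclei, where Eln was lowest.

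Eln (chr5:134702593-134747323, minus strand, GRCm38) was highest in smooth muscle, at 2215 ± 578 CPM (SD over the 3 libraries with at least 20 such nuclei). Mesothelial nuclei (846 ± 382, n = 8), fibroblasts (772 ± 698, n = 12), venous endothelium (715 ± 441, n = 12) and arterial endothelium (657 ± 385, n = 10) followed. Their SDs pool all groups and exceed the gaps between these means, but the order changed with the group. In PBS_vehicle, PBS_NVP, Bleo_vehicle and Bleo_NVP (replicate 3 only), mesothelial nuclei averaged 213, 311.5, 37.8 and 335.7% of the fibroblast level of Eln. Venous endothelium averaged 163.9, 111.6, 57.9 and 143.9% in the same order of groups. These differences between classes were not tested. Fibroblasts exceeded venous endothelium in 5 of 12 libraries. Arterial endothelium exceeded lymphatic endothelium (265 ± 183, n = 7) in 6 of 6 libraries that had both. AT1 nuclei, alveolar macrophages, aerocyte capillary and club nuclei came lowest, down to 12.5 CPM in AT1 nuclei.

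The microfibril genes were more closely tied to fibroblasts. Fbn1 (chr2:125300594-125507993, minus strand) stood at 640 ± 121 CPM in fibroblasts and exceeded the next class, lymphatic endothelium (413 ± 116), in 6 of 7 libraries. Mfap4 (chr11:61485431-61488900, plus strand) stood at 202 ± 139.5 CPM and Mfap5 (chr6:122505845-122529290, plus strand) at 69.4 ± 13.5 CPM, and each exceeded the next class in all 8 libraries that had both. The level of Mfap4 varied widely between libraries, from 52.4 to 522 CPM. Fbn2, the fibrillin best known from fetal tissue, had its highest mean in AT2 nuclei at 23.4 ± 21.7 CPM (n = 12), followed by mesothelial nuclei at 13.3 ± 15.2 CPM (n = 8), and AT2 was the higher of the pair in 6 of 8 libraries.

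The genes that join elastin to the microfibril had wider patterns. Fbln5 (chr12:101746565-101819055, minus strand) stood at 179 ± 91.1 CPM in lymphatic endothelium (n = 7) and 109.9 ± 21.1 CPM in AT1 nuclei (n = 12), and ranked lower in fibroblasts than in 7 other classes. Ltbp4 (chr7:27305136-27337692, minus strand) stood at 216 ± 83.3 CPM in arterial endothelium, 159 ± 91.9 in lymphatic endothelium and 149 ± 45.5 in fibroblasts, and these neighbours overlapped, the first exceeding the second in 4 of 6 libraries and the second the third in 4 of 7. Efemp2 (chr19:5473954-5482517, plus strand) was at 8.01 ± 3.49 CPM in fibroblasts and Emilin1 (chr5:30913402-30921277, plus strand) at 13.5 ± 8.05 CPM, against at most 16.6 CPM (smooth muscle, 7 UMIs) and 13.99 CPM (lymphatic endothelium, 18 UMIs) in any other class. Annotated antisense genes overlap Efemp2 (Mus81), Mfap4 (Mapk7), Eln, Fbn1 and Fbn2, and whether counting used strand is not given in the sources used here.

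Over the 18 classes, the 5 genes whose mean log2(CPM + 1) was most like that of Eln among 12082 genes were Fstl1 (Pearson r = 0.96), Slit3 (0.94), Ltbp1 (0.92), Fbn1 (0.90) and Sgcd (0.89). Fbn1 was the only member among them. Ltbp4 (r = 0.87) ranked 11 and Mfap5 (0.85) 16, while Efemp2 (0.58), Mfap4 (0.56), Emilin1 (0.52), Fbln5 (0.47) and Fbn2 (0.17) ranked 484 to 3669. The points are classes from the same 12 libraries and differ in depth, so these r values are descriptions.

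Bleo_vehicle was compared with PBS_vehicle in fibroblasts to see how injury changed these genes. Fibroblast UMIs were summed per library, scaled to CPM with TMM library sizes, and tested with the edgeR quasi-likelihood test over 10488 genes, and a gene is called when its Benjamini-Hochberg adjusted p is under 0.05. Of the 9 members, 8 passed the filter on low counts. Of these 8, 1 was called lower and none higher, where 4.01% of all tested genes were called (3.05% higher and 0.963% lower), and the median log2 change was -0.01 for the 8 and 0.00 for all genes. The called member was Ltbp4, and Eln had the largest change without passing the threshold.

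Eln was at 757, 498 and 222 CPM in PBS_vehicle and at 2695, 1066 and 1272 CPM in Bleo_vehicle, each in the order of replicates 1 to 3. All Bleo_vehicle libraries lay above all PBS_vehicle libraries, and in 20.6% of tested genes these groups did not overlap. The log2 change was 1.76 ± 0.50 (SE), with an edgeR adjusted p of 0.0769. Without Bleo_vehicle replicate 1 it was 1.23 (adjusted p = 0.281). DESeq2 called the change (1.76, adjusted p = 0.00254).

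Ltbp4 moved the other way. It was at 186, 173 and 171 CPM in PBS_vehicle and at 42.3, 121 and 91.3 CPM in Bleo_vehicle, again without overlap. The log2 change was -1.01 ± 0.24, with an edgeR adjusted p of 0.0341. Without Bleo_vehicle replicate 1 it was -0.75 and still called (adjusted p = 0.0148), but the call was lost when any 1 of the PBS_vehicle libraries (adjusted p = 0.0665 to 0.0896) or Bleo_NVP replicate 1 or 3 (0.0505 and 0.0506) was left out, and in a fit of the 6 libraries compared alone (0.162).

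Fbn1 and Mfap5 had changes near 0. Fbn1 was at 637, 599 and 692 CPM in PBS_vehicle and 942, 546 and 688 CPM in Bleo_vehicle, a log2 change of 0.17 ± 0.20 (edgeR adjusted p = 0.724) that was -0.07 without Bleo_vehicle replicate 1. Mfap5 was at 83.6, 75.1 and 69.1 CPM against 52.6, 74.7 and 93.0 CPM, a log2 change of -0.02 ± 0.19 (adjusted p = 0.982). For both genes the groups overlapped. The 95% interval of the log2 change, taken from the SE under a normal spread, was -0.22 to 0.56 for Fbn1 and -0.40 to 0.36 for Mfap5. That of Eln began at 0.77, but Eln was not called and its change was 1.23 without Bleo_vehicle replicate 1. Whether Fbn1 and Mfap5 changed less than Eln was not tested.

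Mfap4 was at 97.5, 133.5 and 331 CPM in PBS_vehicle and 239, 66.5 and 52.4 CPM in Bleo_vehicle, a log2 change of -0.72 ± 0.80 (edgeR adjusted p = 0.71). Its libraries of one group differed more than the groups did. The fibulins and Emilin1, whose counts are lower, also overlapped between the groups. Fbln5 changed by -0.40 ± 0.41 (adjusted p = 0.68), Efemp2 by -0.01 ± 0.38 (0.997) and Emilin1 by 0.18 ± 0.45 (0.894) on the log2 scale.

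Fbn2 did not pass the filter in fibroblasts. It gave 5 UMIs in 9102423 in PBS_vehicle (0.549 CPM, 95% exact Poisson interval 0.178 to 1.28), 5 in PBS_NVP (0.438 CPM), 44 in Bleo_vehicle (3.37 CPM, 2.45 to 4.52) and 2 in Bleo_NVP (0.411 CPM, 0.0498 to 1.49). Single Bleo_vehicle libraries had 8 to 26 UMIs and single PBS_vehicle libraries 1 or 2. The ratio of Bleo_vehicle to PBS_vehicle was 6.13 (95% interval 2.44 to 19.8) and that of Bleo_vehicle to Bleo_NVP 8.18 (2.14 to 69.7). These intervals cover counting error only and not the spread between mice.

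**Figure D2:**
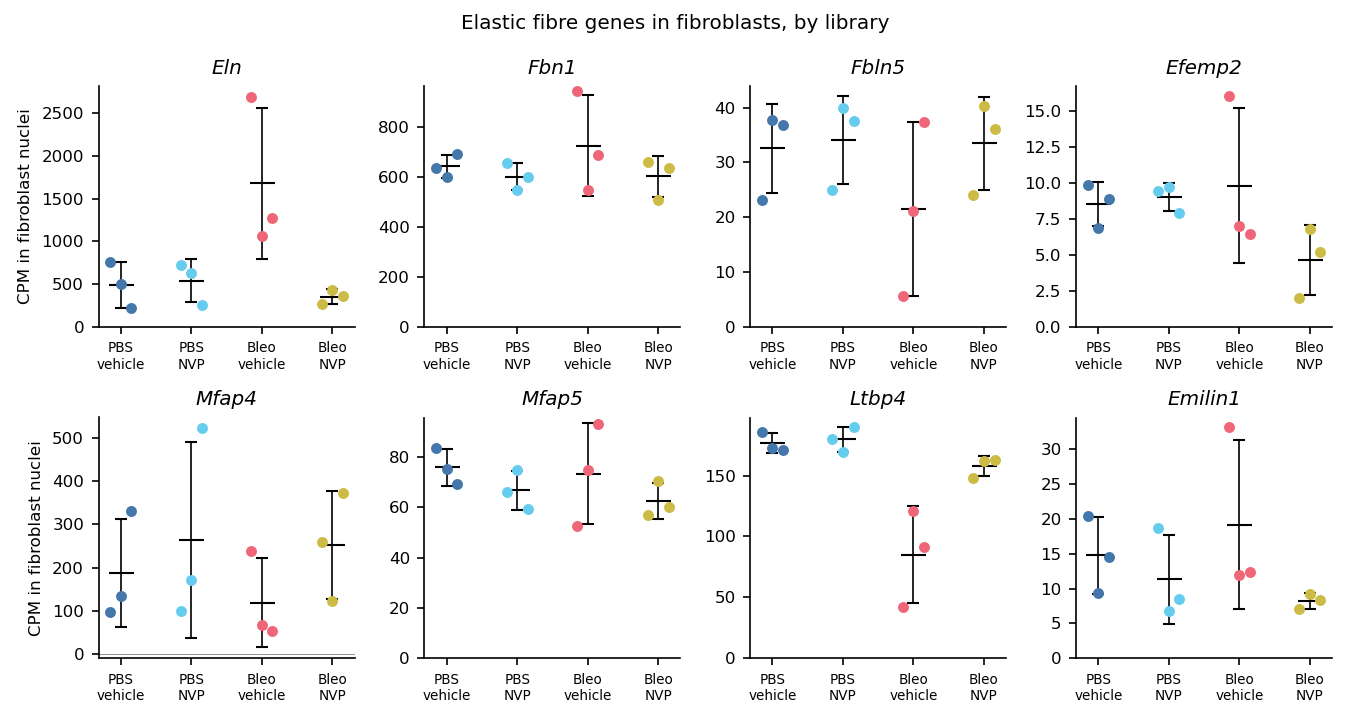
CPM (TMM-scaled) in fibroblast nuclei of the 8 members that passed the filter, by group, with replicates 1, 2 and 3 from left to right, the mean as a bar and error bars of 1 SD (n = 3). Eln of Bleo_vehicle lies between 1066 and 2695 CPM, above the other 9 libraries, and Ltbp4 of Bleo_vehicle lies between 42.3 and 121 CPM, below them.

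Bleo_NVP was compared with Bleo_vehicle to see what the inhibitor changed after injury. Of the 8 members, Eln was called lower and Ltbp4 higher, where 7.66% of all tested genes were called (5.0% lower and 2.66% higher). The other 6 members were not called. The median log2 change was -0.26 for the 8 members and -0.05 for all genes.

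Eln was at 267, 432 and 365 CPM in Bleo_NVP, below each of the Bleo_vehicle libraries. The log2 change was -2.23 ± 0.51, with an edgeR adjusted p of 0.0268. The call was lost without any 1 of the Bleo_NVP libraries (adjusted p = 0.0643 to 0.0992) and without Bleo_vehicle replicate 1, where the change was -1.69 (adjusted p = 0.096). It held among nuclei of 500 UMIs or more with mitochondrial genes taking no more than 1% (-2.35, adjusted p = 0.042).

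Ltbp4 was at 148, 162 and 163 CPM in Bleo_NVP, above each of the Bleo_vehicle libraries. The log2 change was 0.85 ± 0.25, with an edgeR adjusted p of 0.04998 that sits at the threshold. It stayed positive in all alternatives, from 0.60 to 1.17, and was under the threshold in 8 of 23. Without Bleo_vehicle replicate 1 it was 0.60 and called (adjusted p = 0.0374), and leaving out any other library than Bleo_vehicle replicates 1 and 2 gave adjusted p-values of 0.0534 to 0.1395.

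Efemp2 and Emilin1, like Eln and Mfap5, had their lowest group means in Bleo_NVP, but neither Efemp2 nor Emilin1 was called. Emilin1 was at 33.2, 12.0 and 12.4 CPM in Bleo_vehicle and 7.01, 9.23 and 8.38 CPM in Bleo_NVP, without overlap, a log2 change of -1.04 ± 0.50 (edgeR adjusted p = 0.230). Efemp2 was at 16.0, 6.97 and 6.44 CPM against 2.00, 6.80 and 5.16 CPM, a log2 change of -0.78 ± 0.45 (adjusted p = 0.317). Between Bleo_NVP and Bleo_vehicle 29.2% of all tested genes did not overlap.

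Among the others, Fbn1 was at 661, 509.5 and 636 CPM in Bleo_NVP and changed by -0.27 ± 0.20 on the log2 scale (edgeR adjusted p = 0.465). Mfap5 changed by -0.26 ± 0.20 (0.470), Fbln5 by 0.49 ± 0.41 (0.529) and Mfap4 by 1.16 ± 0.81 (0.433). All 4 overlapped between the groups. Mfap4 was at 260.4, 122 and 373 CPM in Bleo_NVP.

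**Figure D3:**
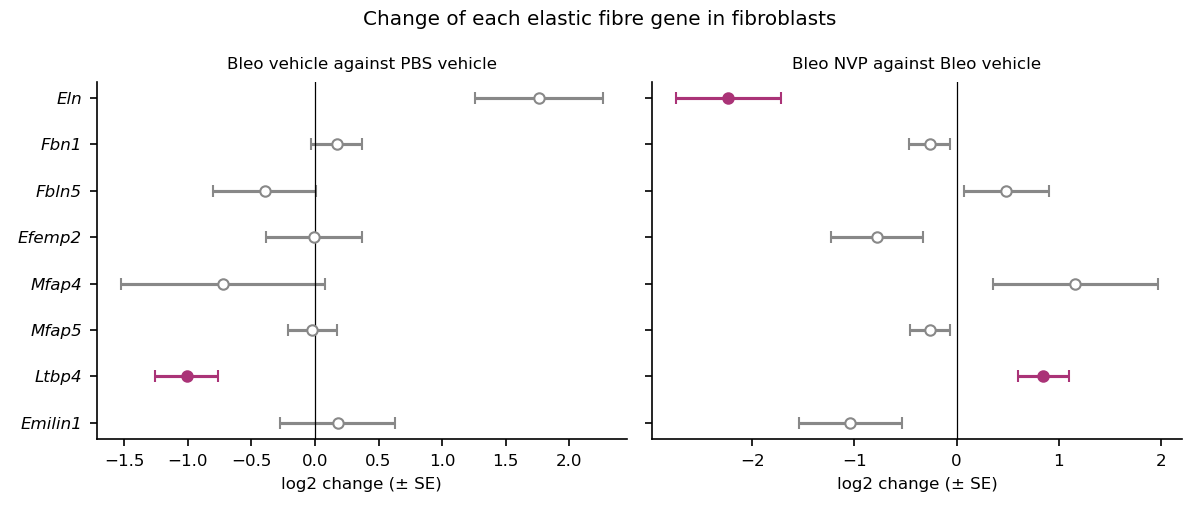
Log2 change of the 8 tested members in fibroblasts for Bleo_vehicle against PBS_vehicle (left) and Bleo_NVP against Bleo_vehicle (right), with bars of 1 SE from the fit over 12 libraries. Filled points are called (edgeR adjusted p under 0.05). Ltbp4 lies at -1.01 and 0.85 and Eln at 1.76 and -2.23, while the other members lie between -1.04 and 1.16.

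Other values moved with the Bleo_vehicle group in the same fibroblast sums, and their part in the changes of Eln and Ltbp4 was not tested. The 13 mitochondrial genes summed to 5343 to 12590 CPM in Bleo_vehicle and to 202 to 401 CPM in the other groups, and all 13 were called higher than in PBS_vehicle and lower in Bleo_NVP. AT2 markers summed to 309 to 1254 CPM in Bleo_vehicle, 97.8 to 274 in PBS_vehicle and 107 to 145 in Bleo_NVP, with 2 of 7 called higher and 4 of 7 called lower in the respective comparisons. Smooth muscle markers, of a class with high Eln, summed to 39.6 to 105 CPM in Bleo_vehicle, 35.05 to 55.2 in PBS_vehicle and 20.1 to 61.6 in Bleo_NVP, and none of the 4 tested was called. Pericyte markers summed to 109.9 to 263 CPM in Bleo_vehicle and at most 101 CPM in the other groups, with none of 5 called higher and 1 called lower. Of 22 lists of cell type markers, the sums of 10 did not overlap between Bleo_vehicle and PBS_vehicle and those of 11 did not between Bleo_NVP and Bleo_vehicle, and of 61 markers tested 6 were called higher and 1 lower in the first comparison and 1 higher and 16 lower in the second.

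The level of Eln relative to each partner was then taken in every library. The log2 ratio of Eln to Fbn1 was -0.55 ± 0.98 (SD, n = 3) in PBS_vehicle, 1.12 ± 0.34 in Bleo_vehicle and -0.78 ± 0.53 in Bleo_NVP. For each of the 7 tested partners the ratio was higher in every Bleo_vehicle library than in every PBS_vehicle and every Bleo_NVP library. The mean differences from PBS_vehicle ran from 1.54 (Emilin1) to 2.99 (Ltbp4), each with a two-sided exact permutation p of 0.10, the smallest that 3 against 3 allows. This separation was not particular to the partners, since 78.2% of all tested genes gave non-overlapping ratios to Eln in that comparison and 87.5% in Bleo_NVP against Bleo_vehicle. Between the PBS groups and between Bleo_NVP and PBS_NVP all 7 ratios overlapped, where 0.42% and 2.53% of genes did not. The ratios share the values of Eln and are therefore not independent of each other.

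Without injury, none of the 8 members was called between PBS_NVP and PBS_vehicle. In that comparison 0.0% of all tested genes were called by edgeR, 51 genes had an unadjusted p under 0.05, and 4.0% did not overlap. Eln was at 728, 634 and 260.3 CPM in PBS_NVP, a log2 change of 0.13 ± 0.49 whose direction turned when PBS_vehicle replicate 3 (-0.21) or PBS_NVP replicate 1 (-0.14) was left out. Ltbp4 was at 180.1, 169 and 190.1 CPM, a log2 change of 0.03 ± 0.24. Same-numbered libraries of these groups deviated together from their group means, and a fit with the replicate number as a block called none of the members either.

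In Bleo_NVP against PBS_NVP, 0.0% of all tested genes were called and no member was. Eln changed by -0.61 ± 0.49 on the log2 scale (edgeR adjusted p = 0.9998) with overlapping groups, and Ltbp4 by -0.19 ± 0.24, with each Bleo_NVP library below each PBS_NVP library. Of the 8 members, Ltbp4 and Efemp2 did not overlap there, as was so for 10.2% of tested genes, and 336 genes had an unadjusted p under 0.05. The difference between the effect of NVP-BHG712 after bleomycin and that after PBS was -2.37 ± 0.70 for Eln (adjusted p = 0.178) and 0.82 ± 0.34 for Ltbp4 (0.299). Neither passed the threshold, where 0.324% of genes did. DESeq2 called the difference for Eln (adjusted p = 0.015), and the adjusted p over 22 alternatives ran from 4.12e-10 to 0.425.

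Within groups, the partners were compared with Eln over the 12 fibroblast sums, as deviations of log2 CPM from the group mean, with exact permutation of libraries within groups (1296 arrangements) and adjustment over 10487 genes. Efemp2 had r = 0.57 (exact p = 0.0239, adjusted p = 0.294) and Spearman rho = 0.65 (exact p = 0.0185), and r was 0.58 without the 2 libraries farthest from the median of Eln, Bleo_vehicle replicate 1 and PBS_vehicle replicate 3. Emilin1 had r = 0.57 (exact p = 0.174) and rho = 0.47 (exact p = 0.225), with r = 0.56 without those libraries. No gene passed the adjustment, and 1430 genes had an unadjusted p under 0.05. The smallest exact permutation p that these arrangements allow is 0.000772. A gene could therefore pass the adjustment over 10487 genes only if many genes shared that p, so the adjustment cannot decide for a single partner.

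The other partners gave r between -0.51 and 0.23 with Eln, with exact permutation p-values of 0.158 or more. Fbn1 had r = 0.23 (rho = 0.12) and -0.05 without the 2 libraries. Mfap5 had r = 0.04 (rho = 0.22) and 0.72 without them (exact permutation p = 0.0486). Mfap4 had r = -0.38 (rho = -0.28) and -0.86 without them (exact permutation p = 0.0278). These p-values are unadjusted, the 2 libraries were picked by their Eln values, and no share over all genes is given for this set. Fbln5 had r = -0.51 (rho = -0.43) and Ltbp4 r = -0.46 (rho = -0.33), which became -0.09 and -0.17. The relations were not alike in the 6 PBS and the 6 bleomycin libraries, where r was -0.97 and 0.56 for Mfap4, 0.85 and -0.56 for Mfap5, -0.28 and 0.60 for Fbn1, and -0.01 and -0.85 for Ltbp4. For the remaining partners the direction was shared, with r of -0.63 and -0.64 for Fbln5, 0.40 and 0.90 for Efemp2, and 0.35 and 0.96 for Emilin1. These r values over 6 libraries are descriptions, and the difference between the sets was not tested. The quartiles of r over all genes were -0.34 and 0.35. The genes most like Eln by this measure were Gypc (r = 0.97), Foxp1 (0.96), Mettl1 (0.95), S1pr3 (0.95) and Rcc1l (0.94) of 7350 genes with at least 10 CPM, none of them a gene of the elastic fibre lists.

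To separate more nuclei with Eln from more Eln in each, every fibroblast nucleus was thinned to 1000 UMIs, which left out 897 of 4237 nuclei in Bleo_vehicle, 88 of 1708 in PBS_vehicle, 105 of 2781 in PBS_NVP and 170 of 1229 in Bleo_NVP. The loss was uneven in Bleo_vehicle, where 275 of 499, 1080 of 1691 and 1985 of 2047 nuclei were kept in replicates 1, 2 and 3. Nuclei with an Eln UMI made up 37.5, 20.2 and 17.8% in PBS_vehicle, 31.8, 24.4 and 18.8% in PBS_NVP, 56.0, 39.4 and 45.5% in Bleo_vehicle, and 16.8, 23.3 and 21.2% in Bleo_NVP. The Bleo_vehicle libraries lay above all others. The Eln UMIs per thinned nucleus with any were 3.24 ± 0.83 in Bleo_vehicle, 1.963 ± 0.48 in PBS_vehicle, 2.11 ± 0.55 in PBS_NVP and 1.59 ± 0.10 in Bleo_NVP. Both quantities were thus highest in Bleo_vehicle among the nuclei deep enough to be thinned. Without thinning the mean shares were 59.9, 47.6, 45.9 and 36.6% in the same order of groups.

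Ltbp4 showed the reverse in thinned nuclei, with a UMI in 8.10 ± 3.04% of nuclei in Bleo_vehicle against 15.5 ± 4.27% in PBS_vehicle, 16.1 ± 0.62% in PBS_NVP and 14.1 ± 1.81% in Bleo_NVP. Fbn1 was seen in 43.3, 41.2, 44.8 and 39.1% of nuclei of PBS_vehicle, PBS_NVP, Bleo_vehicle and Bleo_NVP. As a measure of free RNA, an Eln UMI was seen in 1.83 ± 2.00% of thinned AT2 nuclei in PBS_vehicle and in 10.3 ± 4.88% in Bleo_vehicle, and in T or NK lymphocytes in 2.00% (1 library) and 15.6 ± 6.29% (2 libraries). In PBS_NVP and Bleo_NVP the AT2 shares were 0.809 ± 0.857% and 0.221 ± 0.382%. The T or NK share was 5.81% in PBS_NVP (1 library), and Bleo_NVP had too few such nuclei. The part of free RNA in the fibroblast changes of Eln was not tested. Median depths were 1095 to 5756 UMIs in fibroblasts and 1244 to 5470 in AT2 nuclei. The fibroblast shares of Eln and Ltbp4 in Bleo_vehicle lay above these shares in AT2 nuclei, where Ltbp4 was seen in 1.46 ± 0.89%.

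In the thinned fibroblasts, Fbn1 was also seen more often in nuclei with an Eln UMI than in those without, at 46.9 ± 5.17% against 39.9 ± 5.19% (SD over 12 libraries), and this was so in 12 of 12 libraries. No other partner did so in more than 8 of 12 libraries. Mfap4, for example, was seen in 16.8 ± 8.97% and 16.5 ± 9.29%. The other partners were seen in fewer nuclei than Fbn1, so their counts of libraries are less sure. For Fbn1 the gap was slight in Bleo_NVP replicate 3 (40.26 against 40.21%) and in PBS_vehicle replicate 3 (47.69 against 47.51%). How many of all genes behaved like Fbn1 was not tested, nor was the part of subclusters led by other genes.

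Fibroblast clusters were looked at singly. Cluster 1 (5274 nuclei) and cluster 9 (1579 nuclei, led by genes such as Tnc and Thbs1) carried alveolar fibroblast markers, cluster 6 (2089 nuclei) was led by genes such as Itgbl1 and Agtr1b, cluster 18 (574 nuclei) carried adventitial markers and cluster 21 (439 nuclei) peribronchial ones with Hhip and Aspn. A subcluster of 1167 nuclei carried markers of fibrotic fibroblasts, and made up 21.6 ± 11.3% of fibroblasts in Bleo_vehicle against 6.17 ± 1.09% in PBS_vehicle. Cluster 9 made up 27.1 ± 11.0% and 10.9 ± 3.53%. Its nuclei were shallow, with UMI totals at a median of 0.589 of the median of their library. The clustering left the 9 members out of its variable genes.

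Eln was called higher in Bleo_vehicle than PBS_vehicle in cluster 9, at 3034, 1049 and 1427 CPM against 429, 277 and 467 CPM (log2 change 2.22 ± 0.50, edgeR adjusted p = 0.0459, where 1.05% of 2390 genes were called). It was called lower in Bleo_NVP than Bleo_vehicle in cluster 1 (-3.00 ± 0.68, adjusted p = 0.0447, 3.12% of genes called) and in the fibrotic subcluster (-3.24 ± 0.78, adjusted p = 0.0497, 3.71% called). In the fibrotic subcluster Eln was at 4582, 2037 and 2411 CPM in Bleo_vehicle and 145, 590.2 and 170.4 CPM in Bleo_NVP, the latter from 11, 80 and 15 Eln UMIs in 24, 37 and 30 nuclei. These calls were under the threshold in 7, 8 and 4 of 16 alternatives respectively, and lost in the others.

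Eln was not called in the other fibroblast clusters. In cluster 6, where it was at 1876, 704 and 285 CPM in PBS_vehicle, it changed by 1.00 ± 0.61 with bleomycin (edgeR adjusted p = 0.537) and by -1.52 ± 0.62 with NVP-BHG712 after bleomycin (0.228). In the adventitial cluster 18 it was at 1439, 720.2 and 409 CPM in PBS_vehicle and at 1033 and 603 CPM in the 2 Bleo_vehicle libraries with enough nuclei, a log2 change of -0.18 ± 0.44 (0.982). Whether the clusters differ in their response was not tested.

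The partners had their own order among fibroblast clusters. Mfap5 was highest in the adventitial cluster 18, at 183 ± 32.1 CPM, above cluster 6 (107 ± 35.8) in all 10 libraries compared. Mfap4 was highest in cluster 9, at 382 ± 322 CPM, and above cluster 1 (227 ± 160.0) in 10 of 12 libraries. Fbn1 was similar in clusters 18 and 6 (827 ± 296 and 809 ± 172 CPM) and lowest in cluster 21 (337 ± 125). In cluster 21 Mfap4 was at 33.4 CPM and Fbln5 at 5.74 CPM, the lowest of the clusters for both.

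Outside fibroblasts, 28 pairs of a member and a class could be tested, in 9 classes. In Bleo_vehicle against PBS_vehicle, 5 pairs were called higher and none lower, where 0.0582 to 4.07% of genes were called in single classes. Of the 5, 4 were Eln, in aerocyte capillary (log2 change 2.42 ± 0.45, edgeR adjusted p = 0.00798), general capillary (1.16 ± 0.28, 0.0230), ciliated (3.94 ± 0.66, 0.00481) and alveolar macrophage nuclei (3.62 ± 0.65, 0.00943). The share of all genes called was 0.689, 3.43, 1.52 and 2.77% in these classes and 4.07% in AT1 nuclei. In Bleo_NVP against Bleo_vehicle, Eln was called lower in those 4 classes and in AT1 and AT2 nuclei, 6 of 9 classes tested, with log2 changes from -1.61 to -5.11 and adjusted p-values from 0.00213 to 0.0283, where 1.15% (aerocyte capillary), 3.71% (general capillary), 5.11% (ciliated), 2.16% (alveolar macrophage), 4.75% (AT1) and 4.64% (AT2) of genes were called. In Bleo_NVP, Eln was near the floor in 5 of these classes. It had 3 UMIs in alveolar macrophage, 5 in ciliated, 6 in aerocyte capillary, 6 in AT2 and 12 in AT1 nuclei. General capillary nuclei had 101. In Bleo_vehicle the 6 classes had 222 (aerocyte capillary) to 1135 UMIs (general capillary). All classes come from the same libraries, so these calls are not independent. In 28 tests between the PBS groups and 28 between Bleo_NVP and PBS_NVP no member was called, and for the difference of the NVP-BHG712 effects 1 was, Eln in ciliated nuclei (-5.37 ± 1.12, adjusted p = 0.0433, with 0.59% of genes called).

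In ciliated nuclei, for example, Eln was at 12.9, 12.5 and 12.7 CPM in PBS_vehicle, 263, 337 and 50.1 CPM in Bleo_vehicle and 0, 9.71 and 10.6 CPM in Bleo_NVP, and the Bleo_NVP values rest on 5 UMIs. In general capillary nuclei it was at 186, 128.5 and 106 CPM, at 262, 418 and 288 CPM, and at 53.5, 148 and 97.2 CPM. In both classes the Bleo_vehicle libraries lay above the rest. In venous endothelium, a class with high Eln, the log2 changes were 0.08 ± 0.66 (edgeR adjusted p = 0.994) and -0.95 ± 0.70 (0.664), with overlapping groups and wide errors, and whether this class differs from the others was not tested.

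Several classes held a larger share of the fibroblast level in Bleo_vehicle. Ciliated nuclei had on average 12.5% of the fibroblast level of Eln in Bleo_vehicle and 1.73 to 4.92% in the other groups, and alveolar macrophages 6.89% and 0.801 to 3.46%. Fbn1 did likewise, with 10.5% of the fibroblast level in ciliated nuclei of Bleo_vehicle and 1.05 to 2.81% in the other groups, as did Mfap4 (19.6% and 7.67 to 13.1%) and Ltbp4 (21.5% and 1.76 to 8.42%). Free RNA was not tested as a part of the calls outside fibroblasts. In general capillary nuclei Eln was at 21.4% of the fibroblast level in Bleo_vehicle and 27.4 to 32.7% in the other groups, but the share was higher in Bleo_vehicle for Fbn1 (6.76% against 3.17 to 4.14%), Mfap4 (25.2% against 10.3 to 13.2%) and Ltbp4 (45.9% against 7.96 to 17.0%).

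**Figure D4:**
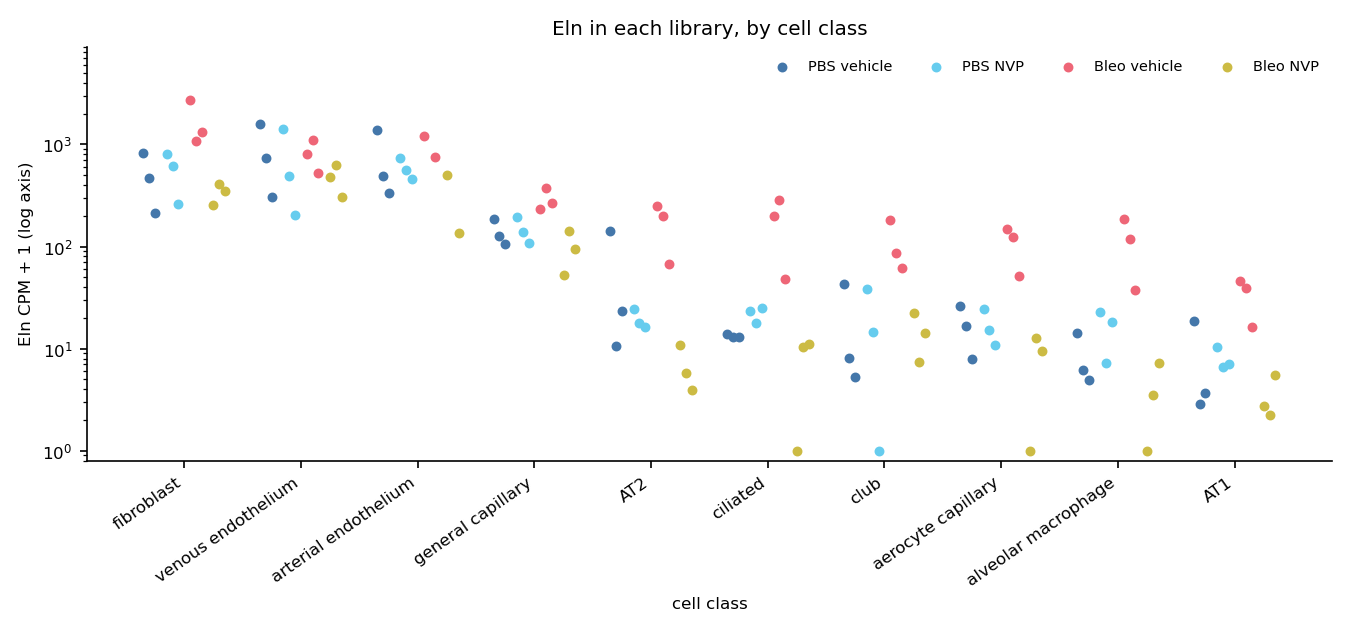
Eln in the 10 cell classes in which it was tested, as CPM + 1 on a log axis, with 1 point per library with at least 20 nuclei of the class, coloured by group. Bleo_vehicle points lie above the others in fibroblasts (over 1000 CPM) and in ciliated nuclei, where Bleo_NVP ranges from 0 to 10.6 CPM, but overlap with PBS_vehicle in venous and arterial endothelium.

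Only 2 calls outside fibroblasts were of genes other than Eln. Fbn1 in AT1 nuclei was higher in Bleo_vehicle (13.2, 15.04 and 7.06 CPM, 136 UMIs in all) than in PBS_vehicle (2.54, 0 and 2.79 CPM, 18 UMIs), a log2 change of 2.50 ± 0.60 (edgeR adjusted p = 0.0329) at a mean of 1.68% of its fibroblast level. Fbn2 in AT2 nuclei was higher in Bleo_NVP (87.4, 23.1 and 27.0 CPM, 43 UMIs) than in Bleo_vehicle (4.02, 3.63 and 7.19 CPM, 38 UMIs), a log2 change of 2.92 ± 0.61 (adjusted p = 0.0166, called in 14 of 16 alternatives). In PBS_vehicle Fbn2 was at 25.6, 5.12 and 23.1 CPM in these nuclei, in PBS_NVP at 36.8, 22.2 and 26.0 CPM, and its log2 change with bleomycin was -1.76 ± 0.59 (adjusted p = 0.137). The mean of Fbn2 was thus lowest in the AT2 nuclei of Bleo_vehicle, the group with its highest count in fibroblasts. In those AT2 nuclei replicates 1, 2 and 3 of Bleo_vehicle held only 1, 4 and 33 UMIs. PBS_vehicle replicate 2 (2 UMIs) lay within their range of CPM, and 25 of the 43 UMIs of Bleo_NVP came from replicate 1.

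Fbln5 in AT1 nuclei, the class that held most of its UMIs, had overlapping groups. It ran from 80.5 to 145 CPM over the 12 libraries, with means of 115 ± 16.0 in PBS_vehicle, 119.8 ± 22.4 in PBS_NVP, 94.2 ± 21.6 in Bleo_vehicle and 113 ± 15.2 CPM in Bleo_NVP. Its log2 change was -0.27 ± 0.19 with bleomycin (edgeR adjusted p = 0.501) and 0.25 ± 0.19 with NVP-BHG712 after bleomycin (0.520).

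In sums over all nuclei of a library, in which fewer fibroblasts and less RNA per fibroblast cannot be told apart, Eln was at 284, 194 and 109.8 CPM in PBS_vehicle, 264, 249 and 118 in PBS_NVP, 757, 436 and 352 in Bleo_vehicle and 121, 178 and 144 in Bleo_NVP. Of 9 members tested there, Eln was called lower in Bleo_NVP than Bleo_vehicle (log2 change -1.80 ± 0.39, edgeR adjusted p = 0.0249), where 5.19% of 14464 genes were called. In Bleo_vehicle against PBS_vehicle, with 2.12% of genes called, the changes of Eln (1.39 ± 0.39, adjusted p = 0.0853) and Ltbp4 (-0.92 ± 0.27, 0.10) did not pass. The call of Eln was lost when Bleo_vehicle replicate 1 or any 1 Bleo_NVP library was left out.

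Of 45 other genes of the elastic fibre, in 5 lists of binding proteins, crosslinking enzymes, ADAMTS-like proteins, proteases and integrins, 36 could be tested in fibroblasts. In Bleo_vehicle against PBS_vehicle 5 were called higher and 1 lower, with a median log2 change of 0.46, where 4.01% of all tested genes were called and their median was 0.00. In Bleo_NVP against Bleo_vehicle 1 was called higher and 8 lower, with a median of -0.58, where 7.66% of all tested genes were called and their median was -0.05. In PBS_NVP against PBS_vehicle and in Bleo_NVP against PBS_NVP none was called.

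Among the binding proteins, Ltbp2, which binds fibulin-5 and fibrillin-1, was at 12.5, 14.2 and 13.3 CPM in PBS_vehicle, 238, 62.7 and 65.7 CPM in Bleo_vehicle and 19.0, 14.6 and 10.3 CPM in Bleo_NVP. It changed by 3.13 ± 0.52 (edgeR adjusted p = 0.00784) and -3.02 ± 0.54 (0.00863), opposite to Ltbp4. Fbln2, a fibulin that also binds tropoelastin, fell in Bleo_NVP against Bleo_vehicle by 3.12 on the log2 scale (adjusted p = 0.0356) at a mean of 6.23 CPM. Together 1 of 9 tested binding proteins rose with bleomycin and 2 of 9 fell with NVP-BHG712.

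Thsd4, an ADAMTS-like protein that promotes fibrillin-1 assembly, was at 16.8, 14.7 and 10.2 CPM in PBS_vehicle, 284, 91.8 and 72.1 CPM in Bleo_vehicle and 18.03, 17.5 and 11.0 CPM in Bleo_NVP. It was the only gene of the 8 in its list called in either comparison, with log2 changes of 3.32 ± 0.53 (edgeR adjusted p = 0.00752) and -3.22 ± 0.55 (0.00826). The calls of Ltbp2 and Thsd4 with bleomycin held in all 23 alternatives run, and their falls in 22 of 23. The calls of Loxl3 held in 19 of 23 alternatives in each comparison (adjusted p up to 0.117 with bleomycin and 0.0964 with NVP-BHG712), and the fall of Itga8 with bleomycin in 19 of 23 (up to 0.115).

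Of 5 crosslinking genes, Loxl3, a lysyl oxidase, rose by 2.23 ± 0.52 (edgeR adjusted p = 0.0319) and fell by 2.47 on the log2 scale (0.0226), and Lox fell with NVP-BHG712 (-0.99 ± 0.29, 0.04998). Of 6 tested proteases that can cut elastin, the lysosomal Ctss (4.29 ± 0.67, 0.00363, and -5.69 ± 0.89, 0.00362) and the gelatinase Mmp2 (0.95 ± 0.25, 0.0461, and -0.98 ± 0.26, 0.0356) were called in both comparisons. Ctss is also a macrophage gene, and in the same sums interstitial macrophage or monocyte markers stood at 26.7 to 93.8 CPM in Bleo_vehicle and at most 10.7 CPM in the other groups, whose part was not tested.

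Of 8 integrin genes, Itga8, the alpha chain of a receptor for matrix proteins of the RGD type, was at 2015, 2632 and 3154 CPM in PBS_vehicle, 396, 829 and 1346 CPM in Bleo_vehicle and 3188, 2589 and 3362 CPM in Bleo_NVP. It fell with bleomycin (-1.60 ± 0.35, edgeR adjusted p = 0.0217) and rose with NVP-BHG712 after bleomycin (1.82 ± 0.35, 0.0095). Itga8 and Ltbp4 were thus the genes of these lists and members that were called lower with bleomycin. Itgb6, known from epithelium, fell in Bleo_NVP by 2.60 on the log2 scale (0.0125) at a mean of 7.04 CPM. AT1 markers in the same sums stood at 213 to 500.5 CPM in Bleo_vehicle and 61.7 to 150.3 CPM in Bleo_NVP, with 3 of 9 called lower, and their part was not tested.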

How the data were processed

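Nuclei of 12 mouse lungs (3 per group) were measured by single-nucleus RNA sequencing. The authors aligned reads to mm10 with Cell Ranger (7.0 per the labels, 7.2.0 per the file headers) and deposited raw UMI counts per gene and barcode, not normalized. The study's own removal of free RNA and doublets is not in these counts. Nuclei with 200 to 6000 genes and at most 5% mitochondrial UMIs were kept, 2708 doublets called by simulation (5.72%) were left out, and nuclei were clustered after Harmony correction, with the members left out of the variable genes, and named from markers, so that each name means "like" that type.

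Counts were summed per class and library and fitted with a mean per group over the 12 libraries with the edgeR quasi-likelihood test (TMM scaling, filterByExpr, Benjamini-Hochberg adjustment over all genes tested), with DESeq2 as an alternative. Classes were tested where enough libraries had at least 20 nuclei. Mice are the replicates. The 95% intervals of counts cover counting error only. Fibroblast sums held 874122 to 9059056 UMIs. Members, lists and tests were chosen with earlier results of these data known. Other pathway genes were named by a rule, the 3 largest rises and 3 largest falls per contrast among called genes that averaged at least 10 CPM and did not overlap, and Fbln2, Lox, Ctss, Mmp2 and Itgb6 were added after their values were seen. On simulated counts for Bleo_NVP against Bleo_vehicle over 10488 genes, 43% of genes changed by 1 and 89% of those changed by 2 on the log2 scale were recovered. The simulated counts had the same spread for every gene and no outlying library, unlike these data, so those rates need not hold for them. Same-numbered libraries of PBS_vehicle and PBS_NVP deviated together (r = 0.69, 0.50 and 0.55), whereas the other comparisons gave r from -0.07 to 0.38. Coordinates are from GENCODE M21 on GRCm38, the sequence build of mm10.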

Additional observations from a re-analysis of the deposited data

Results flagged for a closer look

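Eln in ciliated nuclei drew attention because the effect of NVP-BHG712 after bleomycin differed from that after PBS, by -5.37 ± 1.12 on the log2 scale (edgeR adjusted p of the difference 0.0433, called in 6 of 16 alternatives). Every Bleo_NVP library lay below every Bleo_vehicle library, and the PBS_NVP libraries (22.1, 17.3 and 24.7 CPM, from 36 UMIs) lay above the PBS_vehicle libraries (12.9, 12.5 and 12.7 CPM, from 14 UMIs). The Bleo_NVP libraries held 5 Eln UMIs in all. Ciliated nuclei of Bleo_vehicle also held more of the fibroblast level of Fbn1, Ltbp4 and Mfap4 than those of the other groups, whose part in this difference was not tested.

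Fbn1 in AT1 nuclei drew attention because its libraries lay in opposite directions with NVP-BHG712, lower in every Bleo_NVP library than in every Bleo_vehicle library and higher in every PBS_NVP library than in every PBS_vehicle library. The difference of the effects was -3.17 on the log2 scale and did not pass the threshold (edgeR adjusted p = 0.169, called in 1 of 16 alternatives). The Bleo_vehicle levels rest on 136 UMIs and the Bleo_NVP levels on 12, against 48 for PBS_NVP and 18 for PBS_vehicle. The PBS groups were barely apart, at 2.97 CPM (6 UMIs) in PBS_NVP replicate 3 and 2.79 CPM (4 UMIs) in PBS_vehicle replicate 3. That gap is within counting error. The shares of all genes without overlap in AT1 and in ciliated nuclei are not given here.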

How the results depend on the processing

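In fibroblasts, Eln was higher in Bleo_vehicle than in PBS_vehicle and lower in Bleo_NVP than in Bleo_vehicle, and Ltbp4 the reverse, under all 23 alternatives, whereas their calls changed with the setting. The number of members called with bleomycin was 1 as reported, 2 with DESeq2, 4 with no filter on low counts, 2 with the replicate number as a block, 0 with only the 6 libraries compared, 0 without subclusters led by other genes (chosen after seeing the data), and 0 to 2 when single libraries were left out. With NVP-BHG712 after bleomycin it was 2, and 1 without batch correction, with the stricter limits on UMIs and mitochondrial share, with only 6 libraries, without the Hhip and Aspn cluster or without those subclusters (the last 2 chosen after seeing the data), and 0 to 2 when single libraries were left out. For the difference of the NVP-BHG712 effects it was 0, and 1 with DESeq2 and with no filter.

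In other classes the count with bleomycin was 5, 13 with no filter, 9 with the block and 1 to 10 over single libraries left out. With NVP-BHG712 after bleomycin it was 7, 11 with no filter and 3 to 11 over libraries left out. In the PBS groups it was 0, and 2 with no filter. For the difference of effects it was 1, 4 with DESeq2, 8 with no filter, 5 with the block and 0 to 5 over libraries left out. Over the whole lung it was 0 with bleomycin, 2 with DESeq2 and 2 with the block, 0 to 1 over libraries left out, 1 with NVP-BHG712 after bleomycin, 0 with no filter and 0 to 2 over libraries left out, and 0 for the difference, 1 with DESeq2 and 1 with the block.

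Small log2 changes with bleomycin turned direction. Efemp2 (-0.01) was 0.018 with the block, 0.012 with doublets kept, 0.042 without batch correction, 0.0026 with only 6 libraries and 0.15 without subclusters led by other genes. Mfap5 (-0.02) was 0.16 under the stricter limits and 0.057 without those subclusters. Over single libraries left out, Fbn1 ran from -0.068 to 0.34, Efemp2 from -0.39 to 0.23, Mfap5 from -0.26 to 0.13 and Emilin1 from -0.32 to 0.51. Between the PBS groups Eln ran from -0.21 to 0.58 and Ltbp4 (0.03) from -0.023 to 0.067, and Ltbp4 was -0.00062 at clustering resolution 2 and -0.033 with run number as a block. Of the 7 correlations with Eln, 1 had an unadjusted exact permutation p under 0.05, as had 1430 of all 10487 genes. Without the 2 libraries 3 of the 7 had, for which no share over all genes is given, and r of Fbn1 was -0.053. Shares of fibroblast nuclei with an Eln UMI without thinning were 47.6, 45.9, 59.9 and 36.6% in PBS_vehicle, PBS_NVP, Bleo_vehicle and Bleo_NVP. The cause of these changes was not tested.

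The labels state no pairing of mice, and the run numbers of replicates 1 to 3 are 1, 2 and 2 in PBS_vehicle and 1, 2 and 3 in PBS_NVP. Same-numbered libraries of the 2 PBS groups deviated together in these data, and there the replicate block changed no call. Bleomycin treatment cannot be told apart from run or batch. The values of Efemp2, Emilin1 and Fbn2 are limited most by depth.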

Other observations

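Of the nuclei, 911 in 3 clusters could not be named from the markers. In the largest, of 727 nuclei, Eln stood at 240 CPM and Mfap4 at 459 CPM. In a cluster of 115 nuclei led by genes such as Kcnip1, Eln stood at 115 CPM and Fbn2 at 37.7 CPM from 19 UMIs.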
